A study of Rattus norvegicus with 8 samples.

Results

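Gdf15, Fgf21, Stc1, Stc2 and Vegfa are 5 secreted hormones and growth factors that cells are known to make under stress. Their mRNA was followed here in N27 cells exposed to 3 mitochondrial or metal toxins. The members were every probe whose gene name in the scanner files was one of these 5 symbols, which gave 8 probes of 60 bases among the 30367 probes of the array: 1 each for Gdf15, Fgf21, Stc1 and Stc2, and 4 for Vegfa. N27 is an immortalised rat line from embryonic midbrain that the labels describe as dopamine-producing. The groups were cells given 3-NPA (a dose and time for it are not given in the sources used here), cells given 250 µM MPP+ for 48 h, cells given 150 µM Mn for 48 h, and control cells with no toxin, with 2 single-colour arrays each. All came from the same single line and no allele or transgene was named. 3-NPA is known as an inhibitor of complex II of the respiratory chain, MPP+ as an inhibitor of complex I, and manganese as a metal that is toxic to the basal ganglia. The labels do not say that the 2 samples of a group were separate cultures, so the p-values below measure only the spread between these arrays.

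GDF15 is a distant relative of the transforming growth factor beta family that signals through GFRAL and RET in the hindbrain, and FGF21 is an endocrine fibroblast growth factor that signals through an FGF receptor paired with beta-klotho. Both are widely used as blood markers of mitochondrial disease, and both genes are known targets of the integrated stress response, in which ATF4 and its partner CHOP raise transcription while general translation is held back. The stanniocalcins STC1 and STC2 are glycoprotein hormones. The first known stanniocalcin was found in fish, where it controls calcium. In mammals STC2 inhibits PAPP-A, the protease that frees insulin-like growth factors by cutting IGFBP4. VEGF-A drives the growth of blood vessels through the receptors FLT1 and KDR with neuropilin 1 as co-receptor, and its gene is known to answer to hypoxia-inducible factor and to ATF4.

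The sequences that were measured are shown first, because each value below is the brightness of one of them. The probe sequences were taken from the scanner files in the sense direction, with positions in build rn4 as the files list them. The Gdf15 probe lay at chr16:19313390-19313449 and the Stc2 probe at chr10:16516680-16516739. The listed positions of the Fgf21 probe ran down chromosome 1 over chr1:96082751-96083330, a span of 580 bases for a probe of 60, so that its 2 ends lie in different exons. The Vegfa probes lay on chromosome 9 in the order of the transcript. Vegfa coding 1 came first in the coding part, followed by Vegfa coding 2 at chr9:10528551-10528610 and Vegfa coding 3, in the stretch that encodes the heparin-binding part found only in the longer forms of the protein, at chr9:10531972-10532031. That a probe lies in a coding or an untranslated part, as the names used here say, is taken from what is known of these mRNAs and is not annotated in the files. The 5 sequences below lie in coding parts on that basis.
Gdf15: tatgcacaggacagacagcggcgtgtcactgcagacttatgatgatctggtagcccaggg
Fgf21: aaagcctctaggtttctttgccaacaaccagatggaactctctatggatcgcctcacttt
Stc2: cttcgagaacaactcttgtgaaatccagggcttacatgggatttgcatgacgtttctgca
Vegfa coding 2: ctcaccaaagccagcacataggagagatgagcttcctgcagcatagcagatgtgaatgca
Vegfa coding 3: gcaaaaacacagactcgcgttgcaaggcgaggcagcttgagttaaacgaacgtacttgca
The longest run of bases shared between any 2 of the 8 probes was 6 bases, so no pair reads the same stretch. The remaining probes lay in the 3′ untranslated regions of Stc1 (chr15:49577020-49577079) and of Vegfa (chr9:10535933-10535992, called Vegfa 3′ UTR below).

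Promoter windows from RefSeq on build GRCr8, which is not the build of the probe positions, were found for 4 of the 5 genes: 1 window for Fgf21, 1 for Stc2, and 2 each for Gdf15 and Vegfa. Each window held 250 bases before and 50 bases after an annotated start. They were searched for TGATGCAA, a form of the element that ATF4 is known to bind with a C/EBP partner, and for ACGTG, the core of the hypoxia-inducible factor motif, on both strands, and for TATAAA on the sense strand. TGATGCAA stood in 0.795% of all 33469 windows, ACGTG in 19.3% and TATAAA in 8.8%. Among the windows of these genes only that of Fgf21 held TGATGCAA, once, on the antisense strand 143 to 136 bases before the start. It also held ACGTG on both strands of one palindrome (54 to 49 bases before the start) and TATAAA 32 to 27 bases before the start. The second Gdf15 window held TATAAA 28 to 23 bases before its start. None of the 3 motifs stood in the first Gdf15 window, the Stc2 window or the Vegfa windows, which says only that these letters are not in those windows. The Fgf21 stretch is printed because it held all 3; it covers the 250 bases before the start, on the minus strand at chr1:105221377-105221626 of GRCr8, with the matches in capitals.
Fgf21 upstream: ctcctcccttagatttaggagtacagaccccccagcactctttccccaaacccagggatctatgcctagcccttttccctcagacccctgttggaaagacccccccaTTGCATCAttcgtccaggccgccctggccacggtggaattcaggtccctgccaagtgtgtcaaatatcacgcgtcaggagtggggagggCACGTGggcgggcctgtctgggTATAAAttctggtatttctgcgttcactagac

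Each value below is a probe's processed intensity as a percentage of the 75th percentile of its array, so 100% is a probe as bright as that percentile. Values of different probes cannot be set against each other, since probes differ in how well they bind. A probe was tested when some group had it well above background, as the extraction software flags it, on each of its 2 arrays; 19460 probes (16908 genes) passed. Fold changes are log2 differences of group means with their standard error, and an adjusted p under 0.05 from limma over all 19460 probes was called a change. The 75th percentile of processed intensity was 1026 to 1279 over the 8 arrays, and 32711 to 41354 of 58717 spots per array were well above background, fewest on the control arrays. The dimmest probe that counted as well above background was at 0.871% to 1.53% of the 75th percentile on the 6 toxin arrays but at 3.63% and 4.67% on the control arrays, which touches the dim probes of Stc2 and of Vegfa coding 3. The 3-NPA arrays were read by the extraction software in a later run than the other 6, so this run and 3-NPA treatment cannot be told apart. Of the probes called after Mn, 59% were higher (73.8% after quantile normalization and 70.4% with arrays scaled to their median); after MPP+ it was 54% (65.3% and 71.7%) and after 3-NPA 58.5% (58.6% and 42.6%). Th, the dopamine-synthesis enzyme, was well above background on all 8 arrays (24.7% to 29.3%), whereas the dopamine transporter Slc6a3, Foxa2 and Drd2 were not on any array. Of 7 tested dopaminergic markers, 2 were called higher after 3-NPA (Ddc and Pitx3, dim in control). After MPP+, Pitx3 was called higher and Aldh1a1 lower (-2.52, adjusted p = 0.00609). After Mn only Aldh1a1 was called, as lower (adjusted p = 0.00316), with its Mn arrays not well above background. Of 2 tested neural progenitor markers, 1 was called higher after 3-NPA, 1 after MPP+ and 2 after Mn. In whole cultures such as these, fewer cells making an mRNA and less of it per cell cannot be told apart.

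All 4 testable members were higher after 3-NPA, 3 of 4 after MPP+ and 2 of 4 after Mn, and none of these 4 was lower; Stc1 did not pass the filter. For comparison, 22% of all 16908 genes were called higher after 3-NPA, 7.2% after MPP+ and 4.28% after Mn, and 15.6%, 6.15% and 2.97% were called lower. The median log2 fold change of the 4 members was 1.48 after 3-NPA, 1.25 after MPP+ and 0.85 after Mn, whereas over all genes it was 0.05, 0.02 and -0.02. Vegfa and Fgf21 rose with every toxin, Stc2 with 3-NPA and MPP+, and Gdf15 with 3-NPA. Of the 7 tested probes, 7 were called higher after 3-NPA, 6 after MPP+ and 5 after Mn, against 21.6%, 7.09% and 4.16% of all tested probes. Vegfa supplies 4 of these 7, and probes of 1 gene read the same mRNA, so they are not separate results. Stc2 and Vegfa coding 3 were not well above background in control and were tested only because they were bright with a toxin, so their calls are partly set by that filter. Of the 5 member probes well above background on all 8 arrays, 5 were called higher after 3-NPA, 4 after MPP+ and 4 after Mn, against 20%, 9.16% and 4.83% of the 14431 such probes. These 5 probes stand for only 3 genes, of which 3 were called after 3-NPA, 2 after MPP+ and 2 after Mn. The 3 toxins were set against the same 2 control arrays, so these counts are not independent of each other.

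**Figure D1:**
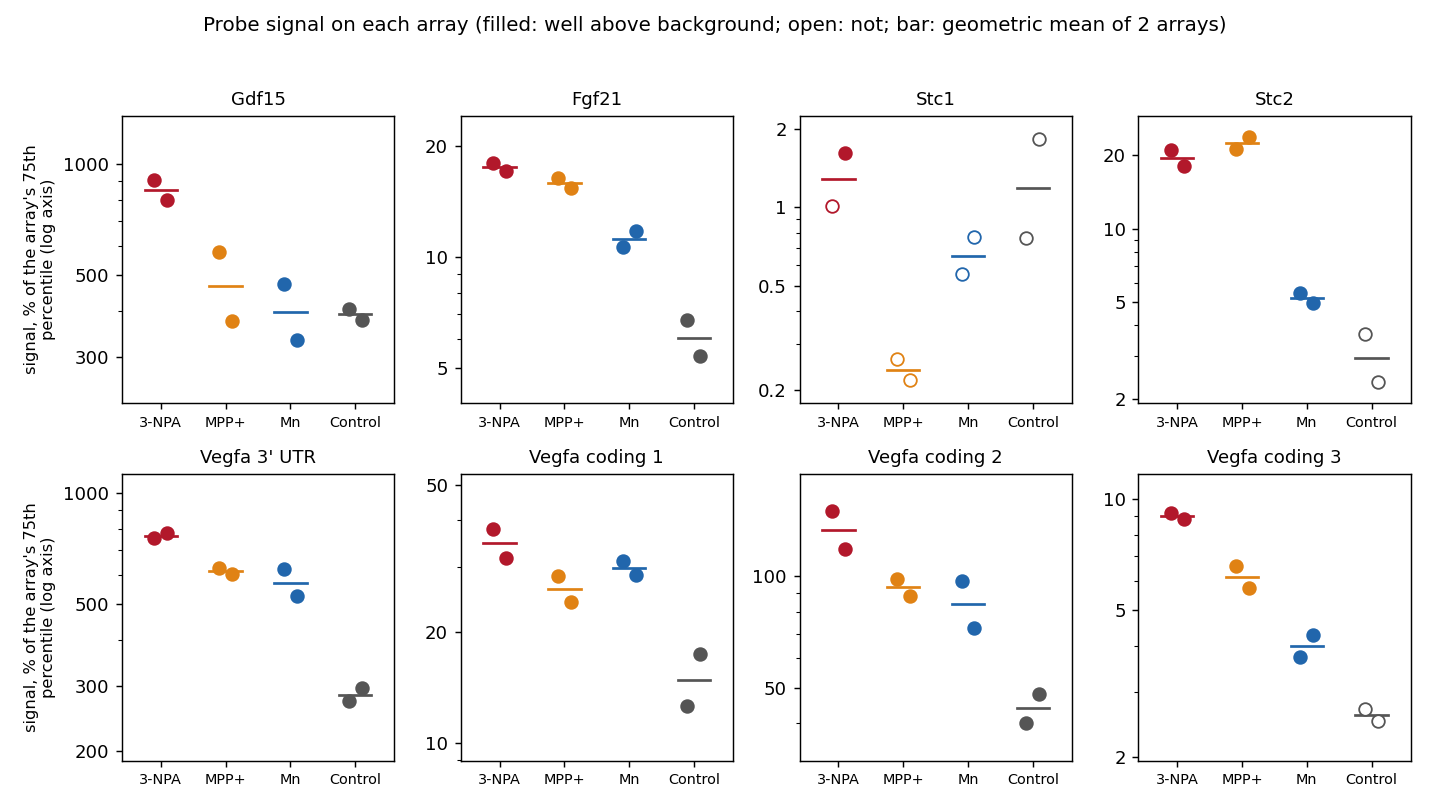
Signal of the 8 member probes on each array, as a percentage of the array's 75th percentile on a log axis, with 1 point per array (filled where well above background, open where not) and a bar at the geometric mean of the 2 arrays. The 3-NPA arrays lie above both control arrays for every probe but Stc1, whose signals all lie below 2% and are mostly not well above background. The Stc2 and Vegfa coding 3 points of the control arrays are open.

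Gdf15 mRNA was higher after 3-NPA only. Its probe read 908% and 798% on the 3-NPA arrays, 579% and 376% on the MPP+ arrays, 474% and 335% on the Mn arrays, and 405% and 379% on the control arrays. Both 3-NPA arrays stood above all 6 others, while each of the other toxins had 1 array above both control arrays and 1 below them. The log2 fold change was 1.12 ± 0.25 after 3-NPA (adjusted p = 0.0169), which is 2.17-fold. After MPP+ it was 0.25 (95% interval -0.36 to 0.86, adjusted p = 0.534) and after Mn 0.02 (-0.59 to 0.63, adjusted p = 0.963), so these arrays could not detect a rise within those intervals. Gdf15 after 3-NPA was also higher than after MPP+ (0.87 ± 0.25, adjusted p = 0.0456) and than after Mn (1.10 ± 0.25, adjusted p = 0.0234), whereas MPP+ and Mn differed by 0.23 with an interval of -0.38 to 0.84. In the order of group means (3-NPA, MPP+, Mn, control), the only neighbours that differed were 3-NPA and MPP+. The Gdf15 call after 3-NPA rests on all 4 arrays: without control replicate 1 the adjusted p was 0.0521, without control replicate 2 it was 0.0629, without 3-NPA replicate 1 it was 0.0874 and without 3-NPA replicate 2 it was 0.0585, with fold changes of 1.03 to 1.21. Gdf15 for 3-NPA over MPP+ lost its call without control replicate 1 or 2, MPP+ replicate 2, or 3-NPA replicate 1 or 2 (adjusted p = 0.0645 to 0.197), and for 3-NPA over Mn without Mn replicate 2 or 3-NPA replicate 1 or 2 (adjusted p = 0.082 to 0.116). The 3-NPA over MPP+ call of Gdf15 was also lost with arrays scaled to their median (0.61, adjusted p = 0.0959) and with the deposited values (adjusted p = 0.0506). The same held without a filter on dim probes (adjusted p = 0.0871) and with the 4 arrays of the pair alone (adjusted p = 0.0616). Without that filter the 3-NPA over Mn call was lost too (adjusted p = 0.052). The Gdf15 value for MPP+ over control turned to -0.06 without MPP+ replicate 1.

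Fgf21 mRNA was higher after all 3 toxins, from a low level. Its probe read 17.9% and 17.0% on the 3-NPA arrays, 16.3% and 15.4% on the MPP+ arrays, 10.6% and 11.8% on the Mn arrays, and 6.76% and 5.39% on the control arrays. No 2 groups overlapped, and all 8 arrays counted as well above background. Control replicate 2 did so narrowly, with 5 of its 9 usable spots well above background. Its reading of 5.39% was near the dimmest signal that counted on that array, 4.67%. The log2 fold change was 1.53 ± 0.13 after 3-NPA (adjusted p = 0.000758), 1.39 ± 0.13 after MPP+ (adjusted p = 0.00362) and 0.89 ± 0.13 after Mn (adjusted p = 0.0182), which are 2.90-fold, 2.63-fold and 1.85-fold. The probe was spotted 10 times on each array, so its reading can be looked at spot by spot. Processed intensity ran from 164.1 to 234.6 over the usable spots of the 3-NPA arrays and from 165.9 to 223.2 over those of the MPP+ arrays. It ran from 98.1 to 157.6 on the Mn arrays and from 44.8 to 85.1 on the control arrays. Every usable spot of every toxin array was thus brighter than every usable control spot, although spots of 1 array share their RNA and control replicate 1 kept only 6 of its 10 spots.

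In the order of Fgf21 levels, 3-NPA and MPP+ did not differ beyond their spread (0.14, 95% interval -0.19 to 0.47, adjusted p = 0.462), and MPP+ over Mn missed the threshold at 0.50 ± 0.13 (adjusted p = 0.0743). Fgf21 after 3-NPA was higher than after Mn by 0.64 ± 0.13 (adjusted p = 0.0174). The size of the change moved with the background correction. With the normexp correction, which here also adds an offset of 50 that draws the folds of dim probes towards 1, the log2 fold change was 0.88 after 3-NPA (adjusted p = 0.000318) and 0.75 after MPP+ (adjusted p = 0.00214). The call after Mn was lost without Mn replicate 1 (adjusted p = 0.0587) and without Mn replicate 2 (adjusted p = 0.0693), and with the 4 arrays of the pair alone (adjusted p = 0.135). For 3-NPA over Mn the Fgf21 call was lost without Mn replicate 1 or 3-NPA replicate 1 or 2 (adjusted p = 0.0713 to 0.0975).

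Stc1 was in no group well above background on both arrays. Its probe was well above background on 1 of the 8 arrays, 3-NPA replicate 2 at 1.62%, and read between 0.217% and 1.83% over all 8. No fold change is given, since every group but 3-NPA was dim on both arrays. Stc1 mRNA was therefore not measurable here, which does not show that it is absent. In a fit without the filter on dim probes it passed as lower for MPP+ over control (adjusted p = 0.0124), with neither group well above background on any array. It also passed there as higher for 3-NPA over MPP+ (adjusted p = 0.0257), with only 3-NPA replicate 2 well above background.

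Stc2 mRNA was higher after 3-NPA and after MPP+. Its probe read 21.1% and 18.1% on the 3-NPA arrays, 21.1% and 23.7% on the MPP+ arrays, 5.42% and 4.96% on the Mn arrays, and 3.70% and 2.35% on the control arrays. The 3-NPA and MPP+ arrays lay close together and far above the rest, and both control arrays were not well above background, so folds over control are lower bounds. They were computed against the dimmest signal that counted as well above background on each control array, or the probe's own signal where that was higher. On this footing, which holds for the processed signal only, Stc2 was at least 4.7-fold higher after 3-NPA (adjusted p = 0.00063) and at least 5.39-fold higher after MPP+ (adjusted p = 0.00214); the normexp values given below are smaller than these bounds. After Mn the bound was 1.25-fold and the difference did not pass the test (adjusted p = 0.0869); without control replicate 1 it did (adjusted p = 0.0255), as with quantile normalization (adjusted p = 0.0429).

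The toxins could be compared directly for Stc2, since all 6 toxin arrays were well above background. Stc2 was 3.77-fold higher after 3-NPA than after Mn (1.91 ± 0.22, adjusted p = 0.00256) and 4.32-fold higher after MPP+ than after Mn (2.11 ± 0.22, adjusted p = 0.00633). The 3-NPA and MPP+ levels did not differ beyond their spread, with 3-NPA minus MPP+ at -0.20 (95% interval -0.74 to 0.35, adjusted p = 0.543). Leaving out MPP+ replicate 2 moved MPP+ over Mn to 2.03 with an adjusted p of 0.0591. With the normexp correction and its offset of 50 Stc2 kept its calls over control with log2 fold changes of 1.45 after 3-NPA (adjusted p = 7.83e-05) and 1.58 after MPP+ (adjusted p = 0.000263).

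Vegfa mRNA was called higher after all 3 toxins on its 3 brighter probes; the fourth, Vegfa coding 3, was not well above background in control. The brightest, Vegfa 3′ UTR, read 754% and 779% on the 3-NPA arrays, 627% and 604% on the MPP+ arrays, 622% and 525% on the Mn arrays, and 273% and 296% on the control arrays. Every toxin array stood above both control arrays on this probe. Its log2 fold change was 1.43 ± 0.11 after 3-NPA (adjusted p = 0.000583), 1.11 ± 0.11 after MPP+ (adjusted p = 0.00403) and 1.01 ± 0.11 after Mn (adjusted p = 0.00809), which are 2.70-fold, 2.17-fold and 2.01-fold. The call after Mn held in every alternative except the fit on the 4 arrays of the pair alone (adjusted p = 0.0959).

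The other Vegfa probes read lower but moved the same way. Vegfa coding 1, a single spot per array, read 38.0% and 31.7% after 3-NPA, 28.3% and 24.1% after MPP+, 31.1% and 28.5% after Mn, and 12.6% and 17.4% in control. Vegfa coding 2 read 150.0% and 119% after 3-NPA, 98.5% and 88.5% after MPP+, 97.1% and 72.7% after Mn, and 40.1% and 48.1% in control. For both probes no toxin array overlapped the control arrays. The log2 fold changes of coding 1 were 1.23 after 3-NPA (adjusted p = 0.00459), 0.82 after MPP+ (adjusted p = 0.0411) and 1.01 after Mn (adjusted p = 0.0334). Those of coding 2 were 1.60 (adjusted p = 0.0021), 1.09 (adjusted p = 0.0211) and 0.94 (adjusted p = 0.0454) for the same 3 toxins. The 3-NPA calls of both probes held in every alternative, whereas the Mn calls of both and the MPP+ call of coding 1 were lost in 10 to 12 of their alternatives. Leaving out single arrays was among them: without control replicate 1 the adjusted p of coding 1 was 0.0996 after MPP+ and 0.0765 after Mn. The MPP+ call of coding 2 was lost without control replicate 1, MPP+ replicate 1 or MPP+ replicate 2 (adjusted p = 0.0717 to 0.115).

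Vegfa coding 3, the probe in the heparin-binding stretch, was the dimmest of the 4. It read 9.16% and 8.84% after 3-NPA, 6.61% and 5.74% after MPP+, 3.75% and 4.28% after Mn, and 2.71% and 2.51% in control, where both arrays were not well above background. The 4 groups did not overlap. In processed signal the rise over control was at least 2.18-fold after 3-NPA (adjusted p = 0.000349) and at least 1.5-fold after MPP+ (adjusted p = 0.00357). The difference after Mn passed the test (adjusted p = 0.0362), but its size cannot be bounded, because the Mn arrays read below or near the dimmest signal that counted as above background in control. With the normexp correction and its offset its log2 fold change was 0.68 after 3-NPA (adjusted p = 0.000958), 0.29 after MPP+ (adjusted p = 0.0615) and 0.13 after Mn (adjusted p = 0.394), below those bounds, so the sizes and the calls after MPP+ and Mn depended on this setting; background method and offset changed together in it. The call after MPP+ held in the other alternatives run, whereas that after Mn held in 5 of 19 and was lost when any 1 of the 8 arrays was left out (adjusted p = 0.0677 to 0.103).

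Between toxins, 21 differences of single probes were tested: the 7 probes in 3 pairs, each adjusted over all 19460 probes. By the brightest probe of each gene, 4 of the 4 tested members were higher after 3-NPA than after Mn, against 16.6% of all genes. For 3-NPA over MPP+ it was 1 of 4, against 17.8% of all genes, and for MPP+ over Mn also 1 of 4, against 3.92% of all genes. None was lower in these directions. Vegfa 3′ UTR was higher after 3-NPA than after Mn by 0.42 ± 0.11 (adjusted p = 0.0387), but 3-NPA over MPP+ at 0.32 ± 0.11 missed the threshold (adjusted p = 0.0835) and MPP+ over Mn was 0.11 with an interval of -0.17 to 0.38. The 3-NPA over Mn call was lost without Mn replicate 2 (adjusted p = 0.118), 3-NPA replicate 1 (adjusted p = 0.135) or 3-NPA replicate 2 (adjusted p = 0.167), and with no MPP+ replicate 1 or 2 (adjusted p = 0.0796 in both cases), and with arrays scaled to their median (adjusted p = 0.33). Vegfa coding 1 gave 0.22 for 3-NPA over Mn (adjusted p = 0.434) and coding 2 gave 0.67 (adjusted p = 0.0502). Vegfa coding 3 was called in all 3 pairs: 1.17 for 3-NPA over Mn (adjusted p = 0.00166), 0.55 for 3-NPA over MPP+ (adjusted p = 0.0189) and 0.62 for MPP+ over Mn (adjusted p = 0.0326). Its call for 3-NPA over MPP+ was lost without MPP+ replicate 2 or 3-NPA replicate 1 or 2 (adjusted p = 0.0804 to 0.119), and that for MPP+ over Mn without any 1 of the 6 toxin arrays (adjusted p = 0.0534 to 0.168). With the normexp correction and its offset these differences of coding 3 were 0.55 for 3-NPA over Mn (adjusted p = 0.00339), 0.39 for 3-NPA over MPP+ (adjusted p = 0.0115) and 0.15 for MPP+ over Mn (adjusted p = 0.275). For 3-NPA over MPP+ the coding 3 call was also lost with quantile normalization (0.32, adjusted p = 0.0648) and with arrays scaled to their median (0.29, adjusted p = 0.0911). Whether the probes of Vegfa differ from each other in these changes was not tested.

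**Figure D2:**
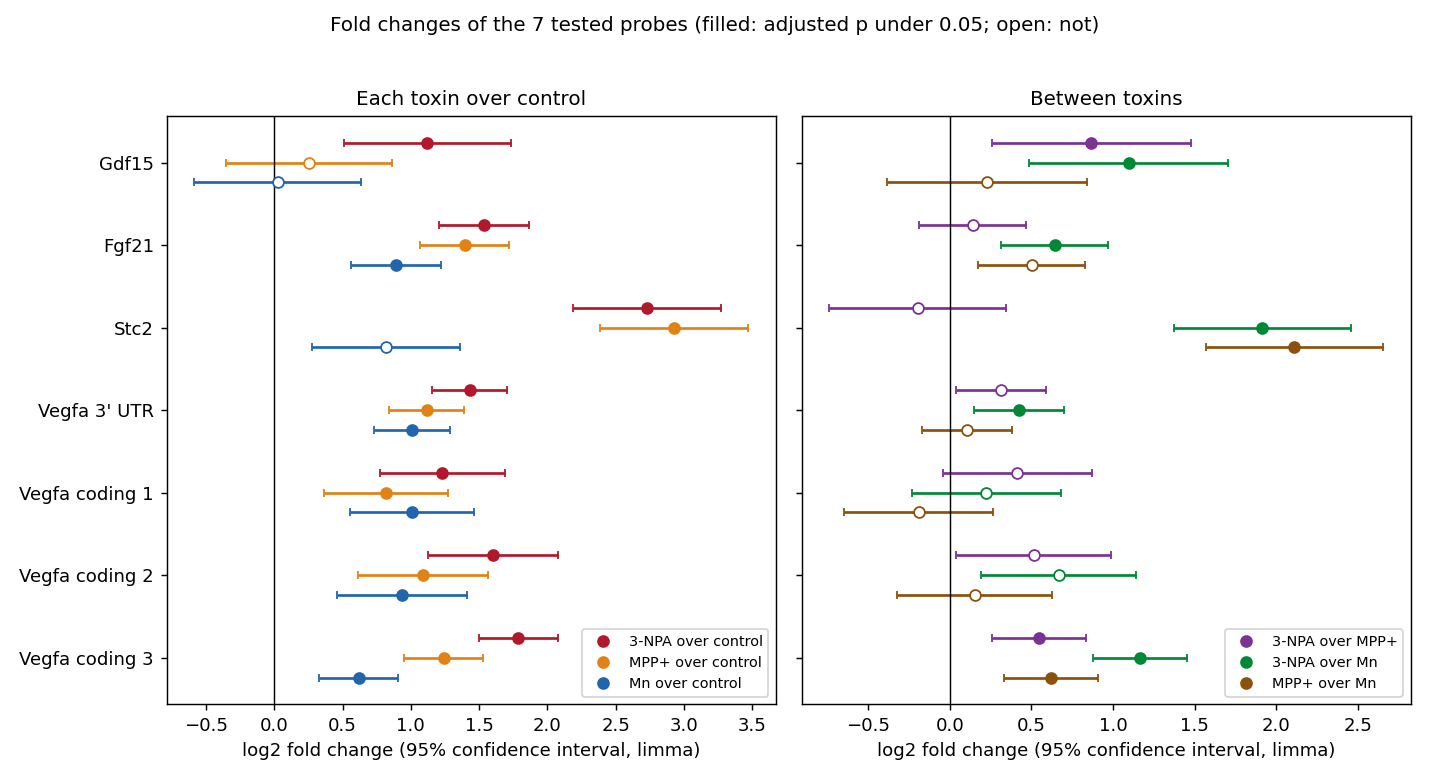
Log2 fold changes with 95% confidence intervals for the 7 tested probes, left for each toxin over control and right between toxins; filled points have an adjusted p under 0.05. Gdf15 passed over control after 3-NPA alone, Fgf21 and the 4 Vegfa probes passed for all 3 toxins, and Stc2 passed for 3-NPA and MPP+; Stc2 and Vegfa coding 3 were not well above background in control.

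The arrays of a group did not overlap those of control for 4 members after 3-NPA, 3 after MPP+ and 3 after Mn. With 2 arrays a group this is common: it held for 71.5%, 63% and 50.1% of all tested probes in the same comparisons.

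For each testable member the 3 genes with the nearest pattern over the 8 arrays were taken, among 11638 genes with a symbol, by the root mean square difference of log2 values after centring on the control mean. For Gdf15 they were Angpt1 (0.13), Naprt1 (0.15) and Cpne9 (0.15), of which Naprt1 and Cpne9 had log2 fold changes over control of 1.14 and 1.13 after 3-NPA and of -0.17 to 0.38 after the other toxins. For Fgf21 they were Gng8 (0.14), Nupr1 (0.15) and Prnd (0.19). For Vegfa they were Ttll3 (0.12), Mfsd6 (0.12) and Eva1c (0.17). For Stc2 they were Spats1 (0.44), Msh5 (0.50) and Ifi27l2b (0.52), but these distances rest on a control reading of Stc2 not well above background. The same holds on the side of the near gene for Angpt1, Prnd, Ttll3 and Spats1, which were not well above background on either control array (Angpt1 on 3 of 8 arrays in all). The likeness is a description of these 8 arrays. A second Mfsd6 probe changed less, with 0.76 after 3-NPA (adjusted p = 0.0156). It was not called after MPP+ (0.364, adjusted p = 0.2) or after Mn (0.302, adjusted p = 0.317).

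**Figure D3:**
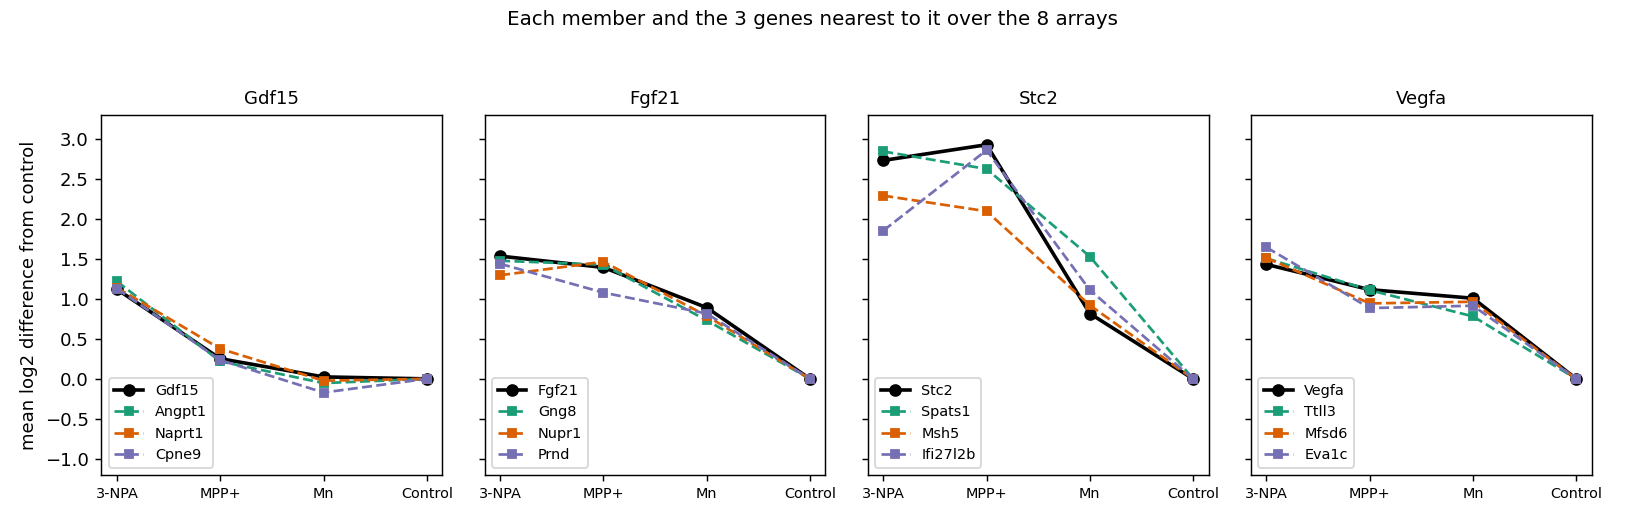
Mean log2 difference from control in each group for the 4 tested members (black) and the 3 genes nearest to each over the 8 arrays (coloured); the lines only join the points of one gene. The genes near Gdf15 lie at or near 0 after Mn and above 1 after 3-NPA, and those near Stc2, which was not well above background in control, include Ifi27l2b at 2.86 after MPP+ and 1.85 after 3-NPA.

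Of the 13 receptors and partners of these factors that were on the array, 8 could be tested. Gfral and Ret, the GDF15 receptor pair, and Pappa, the protease that STC2 inhibits, were not well above background on any array, and Klb, the FGF21 co-receptor, was not on the array by this name. Of these 8, 1 rose and none fell after 3-NPA, none rose and 1 fell after MPP+, and 1 rose and 1 fell after Mn. The shares of all genes were 22% higher and 15.6% lower after 3-NPA, 7.2% and 6.15% after MPP+, and 4.28% and 2.97% after Mn. Kdr, the main signalling receptor for VEGF-A, read 12.0% and 14.1% after 3-NPA and 3.49% and 2.65% in control, not well above background on either control array, a rise of at least 3.16-fold (adjusted p = 0.00408). The MPP+ and Mn arrays read between 1.44% and 2.67% for Kdr. Markers of other cell types moved with 3-NPA too. Of 3 tested endothelial markers, 2 were called higher (Vwf by 0.76, and Pecam1, not well above background in control). So were 3 of 4 fibroblast and mural, 3 of 5 microglia and 2 of 3 oligodendrocyte markers, against 22% of all genes. With arrays scaled to their median it was 2 of 4, 1 of 5 and 2 of 3. Quantile normalization also gave 1 of 5 for microglia. Both called oligodendrocyte markers, Mbp and Sox10, were not well above background in control. Of 3 tested astrocyte markers, 1 was called higher and 1 lower (Gja1, -0.855, adjusted p = 0.00211). The summed endothelial signal, over 5 markers, was 34.7% to 35.4% after 3-NPA, 20.1% to 20.4% after MPP+, 21.2% to 22.1% after Mn and 22.6% to 25.6% in control; Tek and Cldn5 were not well above background on any array. Fibroblast and mural markers summed to 323% to 341% after 3-NPA, 153% to 159% after MPP+, 250% to 257% after Mn (3 of 4 called higher) and 154% to 176% in control, with Dcn and Lum not well above background on any array. Microglia markers summed to 69.1% to 71.8% after 3-NPA, 32.1% to 38.7% after MPP+, 55.5% to 56.7% after Mn and 39.8% to 53.7% in control, with Ptprc not well above background on any array. Oligodendrocyte markers summed to less than 10% on every array. Each sum is weighted towards its brightest probes and takes in probes not well above background, so it is no measure of a cell type. The part of these markers in the results was not tested. Flt1 and Fgfr1, which stayed well above background throughout, did not pass in any of the 3 comparisons, with log2 fold changes of -0.21 to 0.10 and -0.31 to -0.01. Nrp1 was not well above background in control and passed after Mn (adjusted p = 0.0358) with no size that can be bounded.

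Fgfr2 was the receptor that fell. Its brightest probe read 98.9% and 90.7% after Mn and 164% and 155% after MPP+, against 273% and 236% in control, for log2 fold changes of -1.42 ± 0.11 (adjusted p = 0.00296) and -0.67 ± 0.11 (adjusted p = 0.0163). After 3-NPA it read 248% and 259%. The other tested Fgfr2 probes did not follow it: after Mn they gave 0.06 (adjusted p = 0.796) and -0.03 (adjusted p = 0.966), so the fall was seen on 1 of 3 probes.

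Among close relatives of the members, 6 of 9 tested genes rose and 1 fell after 3-NPA, 1 rose and 1 fell after MPP+, and 2 rose and 1 fell after Mn. All genes gave 22% higher and 15.6% lower after 3-NPA, 7.2% and 6.15% after MPP+, and 4.28% and 2.97% after Mn. Of the 6 after 3-NPA, 1 was not well above background in control. With arrays scaled to their median, 4 of the 9 rose after 3-NPA. Pgf, a VEGF family ligand of FLT1, rose by 0.95 ± 0.10 after 3-NPA (adjusted p = 0.00133) and by 0.89 ± 0.10 after Mn (adjusted p = 0.00806); after MPP+ its value was -0.33 (adjusted p = 0.0817). Vegfc, a lymphatic VEGF, rose by 1.10 ± 0.12 after 3-NPA (adjusted p = 0.00162) and not detectably after Mn (0.00, adjusted p = 0.99). Vegfb rose by 0.39 after 3-NPA (adjusted p = 0.0136) and 0.36 after MPP+ (adjusted p = 0.0406). The activin subunit gene Inhbb rose by 1.27 ± 0.10 after 3-NPA on its brightest probe (adjusted p = 0.000592), whereas its second probe gave -0.23 (adjusted p = 0.11).

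The insulin-like growth factor axis is touched by STC2 through PAPP-A. Of its 12 tested genes, 7 rose after 3-NPA, 1 after MPP+ and 1 after Mn, against 22%, 7.2% and 4.28% of all genes. None of the 12 was called lower after 3-NPA or MPP+. Igf1 passed as lower after Mn, but both its Mn and its control arrays were not well above background, so no fall is counted for it. After 3-NPA, 2 of the 7 (Igf1 and Igfbp5) were not well above background in control. The 1 gene called higher after MPP+ and after Mn was Igfbp5 in both cases, so it has the same limit. Igf2 read 50.9% and 54.1% after 3-NPA, 9.40% and 7.95% after MPP+, 10.2% and 9.13% after Mn, and 10.8% and 13.2% in control. Its log2 fold change after 3-NPA was 2.14 ± 0.15 (adjusted p = 0.000374). Igfbp4, the binding protein that PAPP-A cuts, rose by 0.68 ± 0.13 after 3-NPA (adjusted p = 0.00911). Igf1r was called in none of the 3 comparisons, with log2 fold changes of -0.28 to -0.07.

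Genes of the integrated stress response also rose with each toxin. Of 21 tested, 16 rose after 3-NPA, 20 after MPP+ and 12 after Mn, against 22%, 7.2% and 4.28% of all genes. None fell, and the median log2 fold changes were 0.74, 1.33 and 0.55. Atf4 itself rose by 0.60 ± 0.10 after 3-NPA (adjusted p = 0.00604) and 0.94 ± 0.10 after MPP+ (adjusted p = 0.00435), and gave 0.37 ± 0.10 after Mn (adjusted p = 0.0828). Ddit3, which encodes CHOP, read 805% and 789% after 3-NPA, 1316% and 1329% after MPP+, 387% and 317% after Mn, and 242% and 236% in control. Trib3, a pseudokinase induced by ATF4 and CHOP, rose by 2.26 ± 0.14 after 3-NPA (adjusted p = 0.000252), 3.43 ± 0.14 after MPP+ (adjusted p = 0.000553) and 1.87 ± 0.14 after Mn (adjusted p = 0.00239). For Ddit3, Trib3, Atf4 and Asns (asparagine synthetase, 1.23 after 3-NPA, 1.96 after MPP+ and 1.09 after Mn) the value after MPP+ was above that after 3-NPA. So it was for Stc2 (3-NPA minus MPP+ of -0.20, within their spread). Atf3 went the other way, with 0.546 after 3-NPA and 0.499 after MPP+. For Gdf15, Fgf21 and Vegfa the value after 3-NPA was the higher one. By the brightest probe, only Gdf15 was called for 3-NPA over MPP+. Fgf21 (adjusted p = 0.462) and Vegfa 3′ UTR (adjusted p = 0.0835) missed the threshold. The order of Fgf21 turned with quantile normalization and with arrays scaled to their median. Whether these orders differ was not tested. What part the integrated stress response has in the values of the members was not tested either.

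The endoplasmic reticulum chaperones did not rise as a group. Of 17 tested, 2 rose and 4 fell after 3-NPA, 1 rose and 1 fell after MPP+, and 1 rose and 1 fell after Mn. For all genes the shares were 22% higher and 15.6% lower after 3-NPA, 7.2% and 6.15% after MPP+, and 4.28% and 2.97% after Mn. Herpud1, a membrane protein of the degradation machinery of the endoplasmic reticulum, rose in all 3 (1.18 after 3-NPA, adjusted p = 0.00128; 0.99 after MPP+, adjusted p = 0.00707; 0.69 after Mn, adjusted p = 0.0301). Hspa5, the chaperone BiP, fell by 0.82 after 3-NPA (adjusted p = 0.00358) and gave -0.11 after MPP+ (adjusted p = 0.553) and -0.07 after Mn (adjusted p = 0.728).

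The genes of the hypoxia response did not rise as a list. Of 21 tested genes of the hypoxia response, 3 rose and 6 fell after 3-NPA, none rose and 3 fell after MPP+, and 1 rose and none fell after Mn. Over all genes, 22% rose and 15.6% fell after 3-NPA, 7.2% and 6.15% after MPP+, and 4.28% and 2.97% after Mn. The list's median was 0.04 after 3-NPA, and -0.10 when arrays were scaled to their median or -0.06 after quantile normalization. Ankrd37 read 59.9% and 64.2% after 3-NPA, 38.8% and 38.4% after MPP+, 82.9% and 89.3% after Mn, and 78.3% and 77.3% in control, with a log2 fold change of -1.01 ± 0.09 after MPP+ (adjusted p = 0.00301). Egln3, the oxygen-sensing hydroxylase, rose by 0.64 ± 0.09 after 3-NPA (adjusted p = 0.00344) and 0.89 ± 0.09 after Mn (adjusted p = 0.00574). Pgk1, a glycolytic enzyme, gave -0.83 ± 0.10 after 3-NPA (adjusted p = 0.00192). The mRNA of Hif1a gave -0.98 ± 0.19 after 3-NPA (adjusted p = 0.0116) and -0.83 ± 0.19 after Mn (adjusted p = 0.0609). What part the hypoxia response has in the Vegfa values was not tested.

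Gdf15 is also known as a target of p53. Of 14 tested p53 targets, 10 rose and none fell after 3-NPA, 6 rose and 1 fell after MPP+, and 6 rose and none fell after Mn. Among all genes, 22%, 7.2% and 4.28% rose and 15.6%, 6.15% and 2.97% fell, in the same order of toxins. Of the 10 targets after 3-NPA, 1 was not well above background in control. With arrays scaled to their median, 8 of the 14 rose after 3-NPA. Aen, an exonuclease of the p53 response, rose by similar amounts in all 3 (1.68 after 3-NPA, 1.74 after MPP+ and 1.59 after Mn; adjusted p = 0.000768, 0.00267 and 0.00442). Cdkn1a, which encodes the cell cycle inhibitor p21, rose by 2.89 after 3-NPA, 1.39 after MPP+ and 2.01 after Mn on its brightest probe. Its second probe, well above background on all 8 arrays, gave 0.28, -0.11 and 0.14 for the same toxins and was not called (adjusted p = 0.108, 0.576 and 0.479). Phlda3 was called after all 3 toxins, as Aen was. Whether the pattern of Gdf15 differs from those of the p53 targets was not tested.

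**Figure D4:**
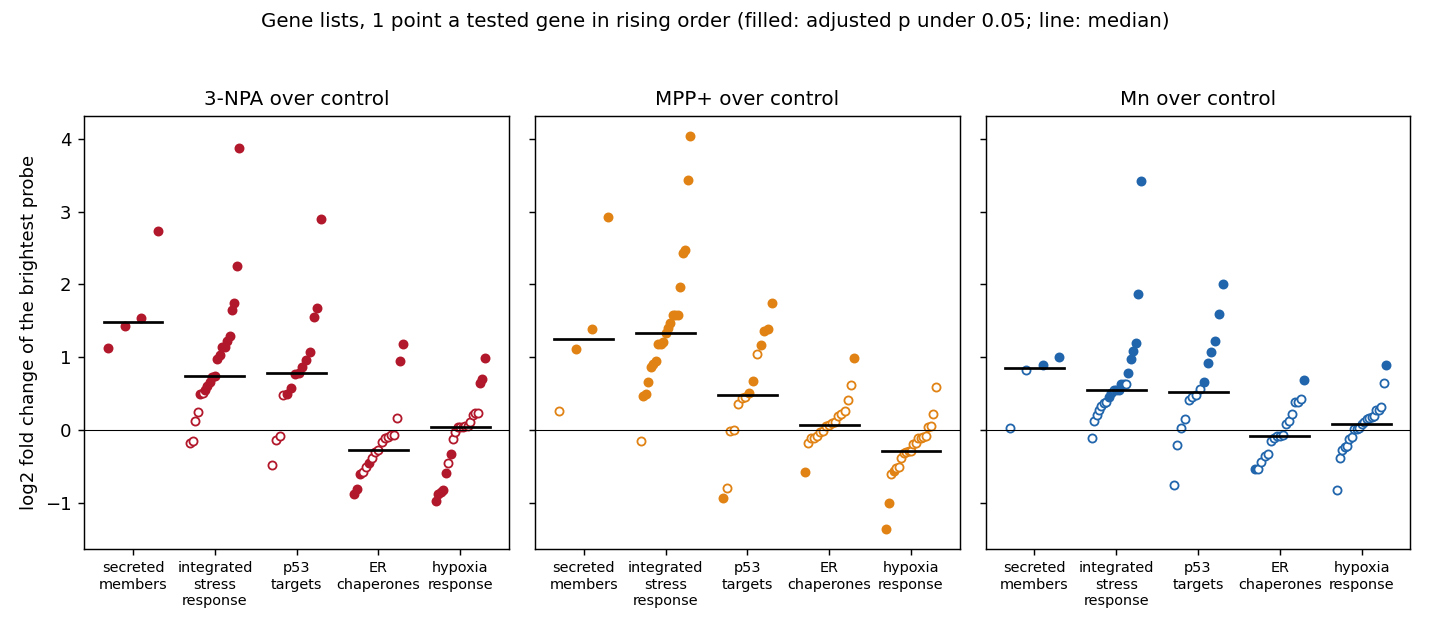
Log2 fold change over control of every tested gene in 5 lists, by its brightest probe, for 3-NPA, MPP+ and Mn; filled points have an adjusted p under 0.05 and the line is the median of the list. The integrated stress response list lies above 0 with each toxin (medians 0.74, 1.33 and 0.55), whereas the chaperone and hypoxia medians lie between -0.29 and 0.08.

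Other secreted stress factors did not move as 1 group. Of 23 tested, 9 rose and 4 fell after 3-NPA, 4 rose and 2 fell after MPP+, and 6 rose and 3 fell after Mn. Shares over all genes were 22% higher and 15.6% lower after 3-NPA, 7.2% and 6.15% after MPP+, and 4.28% and 2.97% after Mn. After each toxin, 2 of the factors that rose were not well above background in control. Areg, an epidermal growth factor receptor ligand, rose by 2.58 after 3-NPA (adjusted p = 0.000245), 1.01 after MPP+ (adjusted p = 0.0129) and 1.07 after Mn (adjusted p = 0.0154). Angptl4, a secreted inhibitor of lipoprotein lipase, fell after 2 toxins, with -0.86 after 3-NPA (adjusted p = 0.00111) and -1.04 after MPP+ (adjusted p = 0.00266). Fgf2 passed after all 3 toxins, but it was dim in control and only after 3-NPA could its rise be bounded, at no less than 1.3-fold.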

How the data were processed

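Total RNA was labelled with Cy3 and hybridised to 8 arrays of 62976 spots, 2 per group, per the labels' protocols. Scanner output held background-subtracted processed intensity per spot, made with Agilent Feature Extraction 11.5.1.1, per the file headers. Series-level values by the authors are on a log2 scale; their 75th percentile on an array is near 0 (0.0101 to 0.0237) and their medians run from -4.38 to -3.99. They correlated with the values used here at 0.9966 to 0.9997 over 30328 probes and served as an alternative; their exact scaling is not stated. Here log2 processed intensity was averaged over the usable spots of each probe, without control and outlier spots (39 probes had none on some array), and the array's 75th percentile was subtracted. A probe counted as above background where more than 0.5 of its spots did. limma 3.58.1 (lmFit and eBayes, 4 residual degrees of freedom) was fitted to the group means of all 8 arrays, with Benjamini-Hochberg adjustment in each of 6 comparisons and 95% intervals. A gene of several probes is given by its brightest tested probe. With 2 arrays a group, an exact permutation test cannot go below p = 0.333. The small number of arrays limits the precision. Same-numbered arrays did not deviate together in all pairs (correlations of -0.0168 to 0.479), so the numbers were not taken as pairs. Members and gene lists were chosen with earlier results of these data known; beyond the members, 16 set genes, the up to 4 genes of each list with the smallest F-test p and 3 near genes per member were eligible to be named, and list genes named beyond that are given for their role. Sequences came from the scanner files and RefSeq. The sequence of Vegfa coding 1 is not reported here.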

Additional observations from a re-analysis of the deposited data

How the results depend on the processing

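The calls of Fgf21, Stc2 and Vegfa 3′ UTR after 3-NPA and after MPP+ held in every alternative in which the probe was tested (Stc2 was not kept when all 8 arrays had to be well above background). Over all member probes and comparisons, 702 values kept their direction and their side of the threshold under an alternative, 103 lost a call, 17 gained one and 9 changed sign. Numbers of probes called in the main fit were 7200 for 3-NPA over control, 2555 for MPP+ over control, 1374 for Mn over control, 5780 for 3-NPA over MPP+, 5293 for 3-NPA over Mn and 1629 for MPP+ over Mn. Without a filter on dim probes they were 13682, 10298 and 8283 over control and 586 for MPP+ over Mn, and 2 members were called for 3-NPA over Mn. That fit also tested Stc1, which was called lower for MPP+ over control with both groups dim, and made 4 members there. For 3-NPA over MPP+ the 1 member called in that fit was Stc1 (adjusted p = 0.0257), not Gdf15. Only the 4 arrays of a pair gave 926 for MPP+ over control, 7 for Mn over control (with 0 members) and 313 for MPP+ over Mn. The 6 arrays of the first extraction run gave 1329, 680 and 614 for the same comparisons. Array weights gave 453 for Mn over control and 8851 for 3-NPA over MPP+, and trended robust variances 2535 for MPP+ over Mn; both gave 2 members for 3-NPA over MPP+, as did quantile normalization. Scaling to the array median and the deposited table gave 0 there. Quantile normalization and the deposited table gave 2 members for MPP+ over Mn. Median scaling moved the median of all probes by over 0.1, to -0.0934 for 3-NPA over control, 0.13 for MPP+ over control, -0.161 for 3-NPA over Mn and -0.233 for 3-NPA over MPP+. Fgf21 for 3-NPA over MPP+ became -0.0077 with quantile normalization and -0.11 with median scaling. With the replicate number as a block, 7027 probes were called for 3-NPA over control, 2098 for MPP+ over control and 1018 for Mn over control, and 4, 3 and 2 members; for 3-NPA over Mn it was 3 members, without Vegfa 3′ UTR (adjusted p = 0.0597).

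Leaving out 1 array at a time gave 3844 to 7451 probes for 3-NPA over control, 459 to 2534 for MPP+ over control, 564 to 1382 for Mn over control, 2378 to 6328 for 3-NPA over MPP+, 2255 to 5810 for 3-NPA over Mn and 212 to 1763 for MPP+ over Mn. Members called ran from 3 to 4, 3 to 3, 1 to 3, 0 to 1, 1 to 4 and 0 to 2. Gdf15 ran from -0.059 to 0.56 for MPP+ over control, from -0.23 to 0.27 for Mn over control and from -0.083 to 0.54 for MPP+ over Mn. For MPP+ over Mn, Vegfa 3′ UTR ran from -0.014 to 0.23 and Vegfa coding 2 from -0.057 to 0.36. The cause of these shifts was not tested. Signal over background limits Stc1, Stc2 and Vegfa coding 3, which were not well above background in control. The Fgf21 reading of control replicate 2 was close to that limit. With 2 arrays a group, a difference that missed the threshold is not shown to be absent.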
